A study of Mus musculus with 10 samples.

Results

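The 7 genes that encode subunits of the NMDA receptor were followed in the cortex of mouse embryos that carried 0, 1 or 2 mutant alleles of Gatad2b, the gene of a subunit of the NuRD chromatin remodelling complex. The genes Grin1, Grin2a, Grin2b, Grin2c, Grin2d, Grin3a and Grin3b were chosen by name, as all subunit genes of this receptor among the 31053 genes of the count matrices. Cortices of 10 embryos at E16.5 were dissociated and profiled by 10X Genomics 3′ single-cell RNA sequencing, with 1 library per embryo. The groups were 3 wild-type embryos (WT), 4 Gatad2b stop/+ embryos (Het) and 3 Gatad2b stop/stop embryos (KO). The stop allele, Gatad2b tm1a(EUCOMM)Hmgu, is a constitutive gene trap cassette between the first and second coding exons, and the later exons are retained, so that sequencing from the 3′ end can still count RNA from a trapped gene. All mice were on the C57BL/6N-A tm1Brd background. Every cell of a mutant embryo carried the allele, and homozygotes die around birth. The study calls the WT and Het embryos littermates, but the labels do not say which embryos share a litter. The main fits treat the embryos as unrelated, and the p-values measure the spread between these embryos.

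NMDA receptors are glutamate-gated calcium channels that assemble from 4 subunits. Grin1 encodes GluN1, the obligatory subunit that binds glycine or D-serine. Grin2a to Grin2d encode GluN2A to GluN2D, which bind glutamate and set how fast the channel closes and how strongly magnesium blocks it. Grin3a and Grin3b encode GluN3A and GluN3B, which bind glycine and lower the calcium flow. In the embryonic forebrain GluN2B is the main partner of GluN1 in excitatory neurons and GluN2D is found in interneurons, whereas GluN2A and GluN2C mostly appear after birth, GluN2C above all in the cerebellum.

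Of 80071 barcodes 65779 were kept as cells, 5147 to 8103 per embryo, with a minimum of 1000 UMIs and no more than 10% of them mitochondrial. A UMI marks 1 captured RNA molecule, and levels are given as CPM, the UMIs of a gene per 1000000 UMIs of the same cells. The kept cells of an embryo held 82872641 to 123737385 UMIs, with medians of 10795 to 17077.5 UMIs per cell, and 496 of 65282 distinct barcode sequences occurred in more than 1 library. Gatad2b, counted as a check of the labels, was at 132 to 142 CPM over all cells of the WT embryos, at 88.1 to 96.6 with 1 mutant allele and at 49.5 to 58.2 with 2, with no overlap between the groups. Its log2 fold change was -0.54 ± 0.05 (SE) in Het and -1.32 ± 0.05 in KO against WT (edgeR quasi-likelihood test, adjusted p = 0.00076 and 1.1e-07). The library names begin with GA429 in WT replicates 1 to 3 and Het replicate 4, and with GA422 in all other embryos. This prefix, whose meaning is not given in the sources used here, cannot be told apart from KO against WT except through Het replicate 4. Clusters 15 to 17, which had few UMIs per cell, also differed along it, with 9.30% to 10.0% of the cells in WT, 8.25% in Het replicate 4, 3.59% to 3.76% in the other Het embryos and 1.67% to 5.59% in KO. The median mitochondrial share of UMIs per cell separated the prefixes as well, at 3.60% to 3.97% in the GA429 and 4.31% to 4.66% in the GA422 libraries. A maximum of 5% kept 1120 to 1464 of 1184 to 1735 upper layer-like cells in the GA429 libraries and 450 to 667 of 787 to 1115 in the GA422 libraries.

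All 7 genes have fixed places in mouse genome build GRCm38. Grin1 lies at chr2:25291181-25319187 on the minus strand and has 21 exons in its annotated transcript with the longest coding sequence. An antisense gene, Grin1os, overlaps its 3′ end at chr2:25291220-25298925. In all, 205 UMIs were counted for Grin1os against 13872 for Grin1. Grin2a lies at chr16:9567898-9995560 and Grin2b at chr6:135713233-136173511, both on the minus strand and spread over 427663 and 460279 bases. The remaining genes are Grin2c at chr11:115249169-115267243, Grin2d at chr7:45831883-45878378, Grin3a at chr4:49661611-49845744 and Grin3b at chr10:79970715-79977190, of which Grin3b alone is on the plus strand. The 3′ reads measure the last exon of each gene, so levels were compared between embryos and cell classes, not between genes.

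NuRD contains methyl-CpG-binding proteins, so the CG pairs around the start sites are shown for a gene that fell in KO and a gene that rose. RefSeq promoter windows of 300 bases, 250 before and 50 after the start (build GRCm38.p6), were at hand for 4 of the 7 genes, and those of Grin2a, Grin2b and Grin3a were not. In both sequences, read 5′ to 3′ on the gene's strand, capitals mark the motif CG, which reads the same on both strands. The first window, chr2:25319138-25319437 on the minus strand, belongs to the obligatory subunit, and the second, chr7:45866632-45866931 on the minus strand, to GluN2D. The RefSeq start of Grin2d lies inside the gene span given above, downstream of the start in that annotation, so the window is not upstream of the whole gene.
Grin1: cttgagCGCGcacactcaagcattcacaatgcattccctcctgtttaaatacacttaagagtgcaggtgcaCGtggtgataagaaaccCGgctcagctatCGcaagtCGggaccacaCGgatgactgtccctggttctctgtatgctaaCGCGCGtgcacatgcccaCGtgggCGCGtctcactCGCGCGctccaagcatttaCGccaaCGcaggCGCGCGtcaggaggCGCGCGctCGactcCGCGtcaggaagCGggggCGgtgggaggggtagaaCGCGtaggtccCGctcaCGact
Grin2d: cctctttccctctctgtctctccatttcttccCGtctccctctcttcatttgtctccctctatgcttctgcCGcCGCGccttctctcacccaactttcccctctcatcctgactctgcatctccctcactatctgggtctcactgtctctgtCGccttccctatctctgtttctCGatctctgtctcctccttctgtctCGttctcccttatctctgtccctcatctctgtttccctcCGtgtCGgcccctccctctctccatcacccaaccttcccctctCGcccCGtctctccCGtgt
The Grin1 window held 33 CG pairs, more than 91.4% of the 32851 promoters in the table, whose median was 7. The Grin2d window held 12, more than 60.4% of the promoters. The windows of Grin2c and Grin3b held 22 and 3. At least 1 CG was present in 94.6% of all promoters. The counts are a description, and no binding or methylation was measured here.

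Over all cells, the genes for the obligatory subunit and for GluN2A and GluN2B were lower in KO than in WT, whereas the gene for GluN2D was higher. Of the 7 genes, 6 had enough counts for the fit, and all 6 passed in KO against WT, 5 of them lower and 1 higher. To pass, a gene needed a log2 fold change beyond 0.25 in either direction with an adjusted p (Benjamini-Hochberg over all genes tested, edgeR quasi-likelihood test) under 0.05 (24.5% of all 17647 genes tested did). A sum over all cells cannot tell fewer cells of a type from less RNA per cell, and the classes are taken one at a time further on.

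Grin1 was at 16.1, 17.4 and 18.7 CPM in the 3 WT embryos, 11.6, 13.5, 13.3 and 14.0 in the 4 Het embryos and 10.0, 9.52 and 9.80 in the 3 KO embryos. The 3 groups did not overlap. Its log2 fold change was -0.79 ± 0.07 in KO and -0.37 ± 0.06 in Het against WT (adjusted p = 2.6e-05 and 0.017), and this was the single subunit gene that passed in Het over all cells (2.98% of all genes passed). The Het call was lost without WT replicate 2 or WT replicate 3 (adjusted p from 4.6e-05 to 0.076 over 21 alternatives other than the prefix) and with the library prefix in the fit (0.27). Grin1os, the antisense gene, had a log2 fold change of -0.52 ± 0.36 in KO (adjusted p = 0.28).

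Grin2b, the juvenile glutamate-binding subunit gene, was at 293, 315 and 278 CPM in WT, 204, 213, 226 and 269 in Het and 177, 145 and 170 in KO. Each KO embryo was below each Het embryo, and each Het embryo below each WT embryo. The highest Het value, 269, was Het replicate 4, the one with the WT library prefix. Grin2b fell by 0.80 ± 0.10 on the log2 scale in KO (adjusted p = 0.00016), while the Het value of -0.34 ± 0.09 did not pass (adjusted p = 0.053). Grin2b is among the genes that the study itself lists from these embryos, so its direction here is not independent evidence.

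Grin2a, which encodes the adult-type subunit, was at 8.48, 11 and 14.1 CPM in WT, 6.0, 7.83, 8.20 and 7.51 in Het and 3.85, 3.27 and 5.05 in KO. All WT embryos lay above all Het embryos, and all KO embryos below them. On the log2 scale KO differed from WT by -1.42 ± 0.19 (adjusted p = 3e-04) and Het by -0.56 ± 0.17 (adjusted p = 0.073).

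Grin2d moved the other way. It was at 1.96, 3.11 and 2.81 CPM in WT, 2.47, 3.06, 3.59 and 2.97 in Het, and 3.90, 4.38 and 4.38 in KO. The KO embryos lay above all others, and WT and Het overlapped. The log2 difference from WT was 0.72 ± 0.17 in KO (adjusted p = 0.0068) and 0.24 ± 0.16 in Het (adjusted p = 0.36).

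Grin3a, the glycine-binding subunit gene of the young brain, spread widely within the groups, at 7.22, 12.2 and 13.3 CPM in WT, 4.67, 7.77, 8.59 and 9.68 in Het and 5.18, 4.77 and 7.09 in KO. WT replicate 1 lay inside the Het range, and all KO embryos were below all WT embryos, KO replicate 3 by a small margin. The log2 fold change in KO was -0.90 ± 0.26 (adjusted p = 0.021), which no longer passed when WT replicate 2, WT replicate 3, KO replicate 1 or KO replicate 2 was left out (adjusted p from 0.002 to 0.081 over 21 alternatives other than the prefix). Grin2c and Grin3b were hardly detected, with 139 and 75 UMIs over the 10 embryos. Grin2c was at 0.152 to 0.196 CPM in the WT embryos, 0.123 to 0.204 in those with 1 mutant allele and 0.0362 to 0.0731 in those with 2, a log2 fold change of -1.55 ± 0.34 in KO (adjusted p = 0.005), and Grin3b was too low to be fitted, at 0.0338 to 0.120, 0.0514 to 0.0727 and 0.0731 to 0.112 CPM in the same order, with the groups overlapping.

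**Figure D1:**
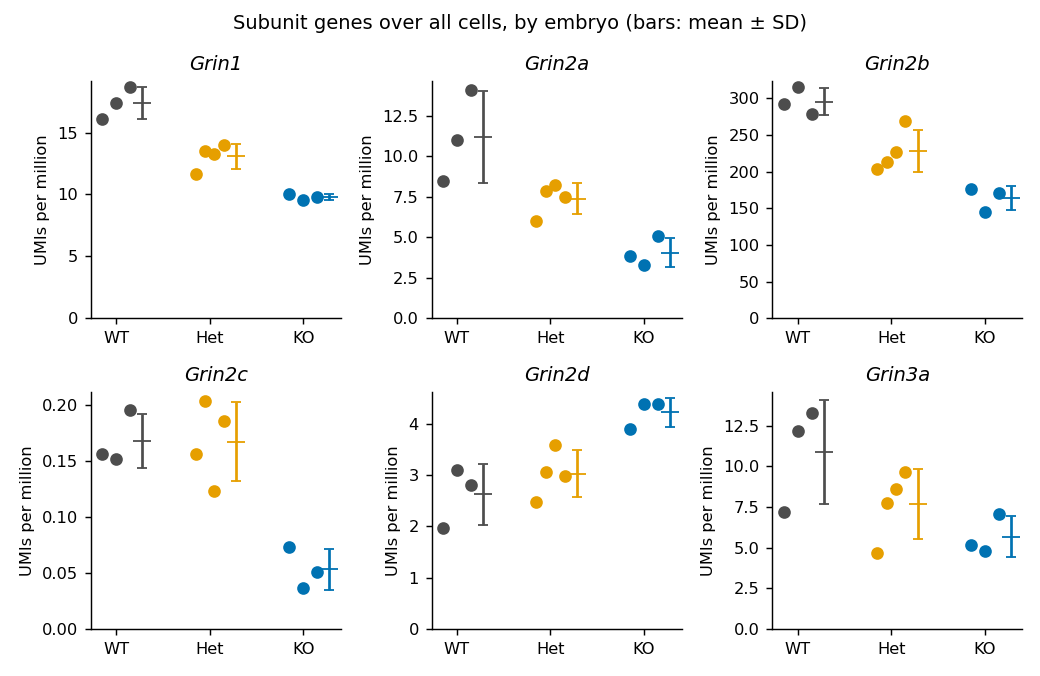
CPM over all cells for the 6 fitted subunit genes, 1 panel each with its own axis from 0. Points are embryos of the WT (3), Het (4) and KO (3) groups and bars are the mean ± SD. Grin1, Grin2a and Grin2b step down from WT through Het to KO without overlap, and Grin2d is highest in KO. The share of all genes whose groups stand apart in this way is not given here.

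Between the mutant groups, KO was lower than Het for Grin1, Grin2a, Grin2b and Grin2c (4 of 6, with 5.5% of all genes passing). The log2 fold changes were -0.41 ± 0.07, -0.86 ± 0.18, -0.47 ± 0.09 and -1.59 ± 0.33. Without KO replicate 2, 1 of the genes passed (2.94% of all genes did). Against the 3 Het embryos with the same library prefix as KO, these 4 genes passed as well (5.88% of all genes did). Grin1 then differed by -0.39 ± 0.07 and Grin2b by -0.39 ± 0.07 (adjusted p = 0.0071 and 0.01), Grin2a by -0.86 ± 0.20 (0.022) and Grin2c by -1.54 ± 0.36 (0.024), whereas Grin2d at 0.47 ± 0.17 and Grin3a at -0.31 ± 0.26 did not pass (0.13 and 0.53). With the prefix as a term in the fit of KO against WT, 3 of the 6 calls stood (8.31% of all genes passed). Grin1 was then at -0.69 (adjusted p = 0.0068), Grin2a at -1.42 (0.028) and Grin2b at -0.51 (0.036), and Grin2c, Grin2d and Grin3a were no longer called (0.14, 0.20 and 0.57).

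Cells were sorted into marker-named classes by clustering without the subunit genes. The classes are called young-like (newly made excitatory neurons with Unc5d, Rnd2 and Sema3c), upper layer-like (settled neurons of layers II to IV), layer V-VI-like, interneuron-like, striatal-like, layer I-like, radial glia-like, intermediate progenitor-like, dividing-like, mural-like, microglia-like and erythroid-like. In each of these 12 classes every embryo had 20 cells or more. Endothelial-like cells fell short of that, and 14437 cells (21.9%) in 8 clusters stayed unnamed.

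In WT, Grin2b was highest in layer V-VI-like cells at 627 ± 27.9 CPM (SD, n = 3), followed by upper layer-like cells at 326 ± 10.3, interneuron-like cells at 261 ± 22.5 and striatal-like cells at 141 ± 4.99. These 4 classes did not overlap with each other. Layer I-like cells at 96.1 ± 25.2 and young-like cells at 84.8 ± 8.40 could not be ordered, since their embryos overlapped. Radial glia-like and dividing-like cells, at 63.7 ± 8.78 and 57.6 ± 9.91, overlapped as well. Mural-like cells at 33.0 ± 19.9 and intermediate progenitor-like cells at 26.2 ± 10.4 overlapped with erythroid-like cells. Red cell precursors should lack the gene but held a Grin2b level of 22.4 ± 6.67 with no mutant allele, 10.4 ± 5.98 with 1 and 4.28 ± 3.78 with 2, which serves here as a measure of free RNA. Microglia-like cells, few in number, should lack it too and held 78.7 ± 36.5, 8.52 ± 6.68 and 11.2 ± 16.3 in the same order.

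Thinned to 5000 UMIs per cell, 71.1% ± 0.713 of the upper layer-like and 29.0% ± 3.21 of the young-like WT cells held a Grin2b UMI, against 6.72% ± 3.31 of the erythroid-like cells. In KO these shares were 48.1% ± 2.20, 6.50% ± 0.586 and 1.27% ± 1.41. Thinning left out 62 WT and 14 KO upper layer-like cells, 47 and 18 young-like cells and 231 and 88 erythroid-like cells. Without thinning, over all embryos, the shares were 88.5%, 32.5% and 7.02%, and the median over the embryos of the median depth was 21241, 13604 and 9274 UMIs per cell.

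**Figure D2:**
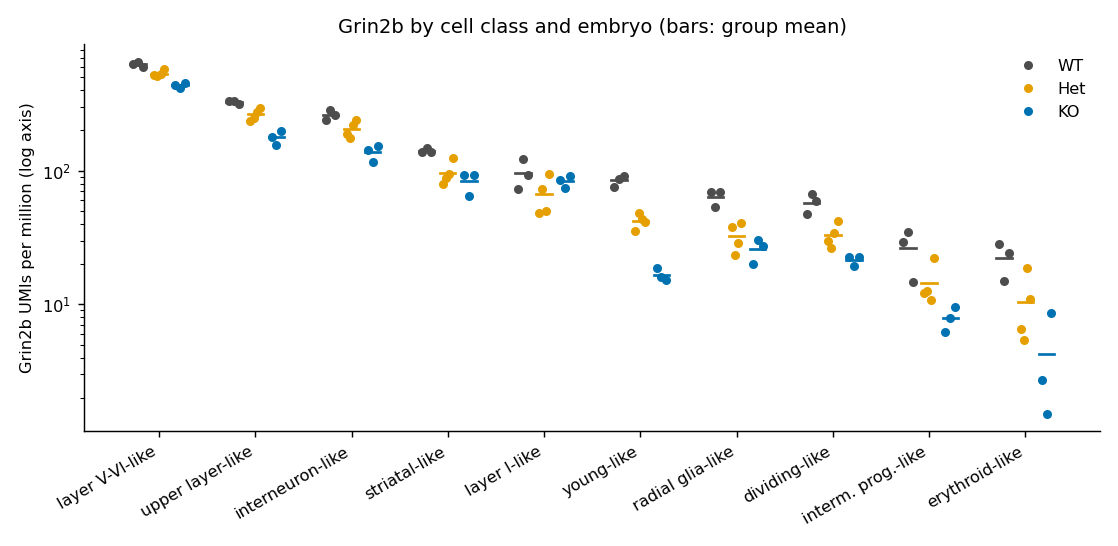
Grin2b in CPM (log axis) in 10 of the 12 classes, ordered by the WT mean, with 1 point per embryo and a bar at each group mean; mural-like and microglia-like cells, with 216 and 98 Grin2b UMIs, are not drawn. Among the neuronal classes, the WT, Het and KO means lie farthest apart on this axis in young-like cells, at 84.8, 42.2 and 16.6.

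Of 84 pairs of gene and class, 38 had enough counts to be fitted, and these had to pass a filter on low counts. In KO against WT 24 of the 38 passed, 21 lower and 3 higher, while 15.9% of all gene and class pairs passed. In Het against WT 10 of the 38 passed, all lower (1.84% of all pairs, and 5, 6 or 3 calls without WT replicate 1, 2 or 3, 5, 6, 6 or 19 without Het replicate 1, 2, 3 or 4, where 0.795%, 1.05%, 0.822%, 0.71%, 1.05%, 0.99% and 5.41% of all pairs passed), and in KO against Het 12 passed, 9 lower and 3 higher (3.9% of all pairs). All 3 higher calls in each KO comparison belonged to Grin2d.

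Grin2b was below WT in KO in 12 of 12 classes and passed in 9. The 12 take in erythroid-like and microglia-like cells, which should lack the gene. They also take in mural-like and intermediate progenitor-like cells, whose WT levels overlapped with the erythroid-like level. Microglia-like and intermediate progenitor-like cells are among the 9. The share of all genes lower in every class was not counted. The largest fall among the neuronal classes was in young-like cells, with 75.6, 86.7 and 92 CPM in WT, 35.2, 48.6, 43.6 and 41.3 in Het, and 18.6, 16.1 and 15.1 in KO. The 3 groups lay far apart. The log2 fold change was -2.28 ± 0.11 in KO and -0.97 ± 0.09 in Het against WT (adjusted p = 1.1e-09 and 7.4e-05), where 25.4% and 4.47% of all genes passed. Het replicate 4, which shares the library prefix of the WT embryos, was at 41.3, within the range of the other Het embryos, whereas in upper layer-like cells it was the highest of them, at 297.

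In upper layer-like cells Grin2b was at 330, 333 and 314 CPM in WT, 236, 246, 275 and 297 in Het, and 180, 156 and 197 in KO. The groups again did not overlap but stood closer together. The log2 change was -0.84 ± 0.08 in KO (adjusted p = 1.8e-06, with 27.9% of all genes passing) and -0.28 ± 0.08 in Het (0.037, with 5.5% passing). The Het value was no longer past the threshold in 10 of 20 alternatives other than the library prefix, among them those without WT replicate 1, 2 or 3, Het replicate 1, 2 or 3, or KO replicate 1, with adjusted p from 0.00055 to 0.14, and was -0.11 with the prefix in the fit (0.71).

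In layer V-VI-like cells, where Grin2b was most abundant, it was at 627, 655 and 599 in WT, 517, 507, 527 and 578 in Het and 437, 417 and 455 in KO. KO differed from WT by -0.46 ± 0.06 on the log2 scale (adjusted p = 4e-05, with 24.3% of all genes passing). Interneuron-like cells fell by 0.91 ± 0.10 on the log2 scale (1.9e-05), striatal-like cells by 0.73 ± 0.13 (0.0014), radial glia-like cells by 1.28 ± 0.17 (0.00012) and dividing-like cells by 1.39 ± 0.18 (0.0011). Layer I-like, mural-like and erythroid-like cells did not pass, at -0.17 ± 0.19, -0.81 ± 0.68 and -0.91 ± 0.44 (adjusted p = 0.67, 0.68 and 0.26). Microglia-like cells, with 98 Grin2b UMIs in all, had -2.82 ± 0.77 (0.048). That call was lost in 7 of 14 alternatives other than the prefix, among them those without WT replicate 1, Het replicate 3, KO replicate 1 or KO replicate 3 (adjusted p from 8.6e-05 to 0.18). The call in dividing-like cells was lost when marked doublets were removed (adjusted p from 5.2e-07 to 0.069 over 20 alternatives other than the prefix). With the library prefix in the fit, the Grin2b calls in layer V-VI-like and interneuron-like cells stood (adjusted p = 0.040 and 0.036), and those in striatal-like, radial glia-like, dividing-like and microglia-like cells were lost (0.65, 0.084, 0.85 and 0.42). The leading gene of the dividing-like class was Ttr, a marker on the choroid plexus list, so the class may not hold dividing cells alone. No erythroid level was subtracted for this class. At a finer clustering, 768 cells led by Ttr, with a median of 1615 UMIs, formed an unnamed cluster of their own. The choroid plexus markers Folr1 and Calml4 were also among its leading genes. The dividing-like class then also took in a cluster of 1252 cells led by Hist1h1b, so its Grin2b value of -1.28 rests on a different set of cells.

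KO reached 19.6% of the WT level of Grin2b in young-like cells, 54.5% in upper layer-like, 52.4% in interneuron-like and 69.6% in layer V-VI-like cells. With the erythroid level of each embryo subtracted, these shares were 19.8%, 57.2%, 55.5% and 71.5%. In intermediate progenitor-like cells the share was 30.1% before and 95.5% after subtraction. The levels left there were 3.79 ± 14.7 CPM in WT and 3.62 ± 2.73 in KO (SD), a spread too wide for that share to be read. The log2 fold change in these cells was -1.71 ± 0.28 (adjusted p = 0.00052), a call lost with the library prefix in the fit (-0.81, adjusted p = 0.34). Radial glia-like cells went from 40.6% to 52.3%. The microglia-like level, which rests on 98 UMIs and lay near the young-like level in WT (78.7 against 84.8) and KO (11.2 against 16.6) but not in Het (8.52 against 42.2), was not subtracted, and its part in the young-like values was not tested.

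Grin1 passed in 5 of 7 fitted classes in KO, all lower. In young-like cells it was at 7.19, 7.39 and 8.01 CPM in WT, 4.88, 5.37, 4.88 and 4.65 in Het and 3.63, 4.14 and 3.33 in KO, a log2 fold change of -0.96 ± 0.15 in KO (adjusted p = 0.00014) and -0.57 ± 0.14 in Het (0.022, and 0.0091 to 0.10 over 20 alternatives other than the prefix, 4 of which lost the call, those without WT replicate 1, 2 or 3 or Het replicate 1). The Het embryos lay between WT and KO with no overlap. Erythroid-like cells held a Grin1 level of 1.44 ± 1.04 CPM in WT and 0 in KO (SD). With it subtracted, the mean KO level in young-like cells went from 49.2% to 60.8% of WT. The same step took upper layer-like cells from 62.5% to 67.4%, layer V-VI-like cells from 66.2% to 71.1% and interneuron-like cells from 67.1% to 71.5%. The falls in KO were 0.64 ± 0.07 in upper layer-like, 0.52 ± 0.08 in layer V-VI-like, 0.55 ± 0.11 in interneuron-like and 1.40 ± 0.24 in striatal-like cells on the log2 scale. Striatal-like cells went from 14.3 ± 2.69 in WT through 7.25 ± 2.13 to 5.25 ± 1.5 in KO (SD). With the prefix in the fit, the KO calls of Grin1 stood in young-like, upper layer-like and layer V-VI-like cells (adjusted p = 0.014, 0.0047 and 0.015) and were lost in interneuron-like and striatal-like cells (0.28 and 0.45), as was the Het call in young-like cells (0.17).

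Grin2a passed in 3 of 7 fitted classes in KO, namely in young-like, upper layer-like and interneuron-like cells. Upper layer-like cells held 12.6, 13.2 and 14.9 CPM in WT, 9.04, 8.16, 9.20 and 9.19 in Het and 4.18, 4.89 and 4.74 in KO. The groups stood apart, with a log2 fold change of -1.53 ± 0.10 in KO (adjusted p = 3.1e-08) and -0.58 ± 0.08 in Het (9e-04), the latter lost at a finer clustering (adjusted p up to 0.31 over 20 alternatives other than the prefix). The upper layer-like class then was a single cluster of 2924 cells, against clusters of 8721 and 2563 cells in the main clustering. A cluster led by Inhba stayed unnamed, so the finer value rests on a different set of cells. In young-like cells the counts were small, at 28, 28 and 37 UMIs in WT, 10, 14, 7 and 9 in Het and 4, 1 and 4 in KO. As a rate per UMI of the class, KO held 7.76% of the WT level (exact 95% interval 3.44% to 15.4%) and Het 31.9% (21.4% to 46.6%), intervals that cover counting error only. The fitted log2 fold changes were -3.58 ± 0.42 in KO and -1.60 ± 0.31 in Het (adjusted p = 1.2e-05 and 0.0097), and the Het call was lost without WT replicate 3 (adjusted p from 1.8e-05 to 0.061 over 20 alternatives other than the prefix) and with the library prefix in the fit (0.062). Erythroid-like cells held a Grin2a level of 0.954 ± 0.307 CPM in WT and 0 in KO, and with it subtracted the mean KO level in young-like cells went from 7.36% to 11.2% of WT. Interneuron-like cells fell by 2.19 ± 0.27 on the log2 scale in KO (4.7e-05). Layer V-VI-like cells, at 4.06 ± 1.05 CPM in WT and 4.33 ± 1.74 in KO, had 0.15 ± 0.27 (0.72). Mural-like cells had a Grin2a level of 17.6 ± 5.56 in WT and 4.83 ± 2.56 in KO, which did not pass (log2 fold change -1.82 ± 0.49, adjusted p = 0.12).

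Grin2d was higher in KO in all 5 fitted classes and passed in 3. In interneuron-like cells it was at 11.7, 16.2 and 13.7 CPM in WT, 19.0, 16.8, 22.2 and 18.4 in Het, and 30.6, 25.5 and 24.6 in KO. The 3 groups did not overlap and stood in the order of the number of mutant alleles. KO differed from WT by 0.97 ± 0.13 on the log2 scale (adjusted p = 0.00012) and Het by 0.47 ± 0.13, which did not pass (0.085). Layer V-VI-like cells went from 0.948, 1.59 and 1.60 in WT to 3.71, 3.72 and 4.02 in KO, with Het at 1.30 to 2.27 (KO against WT 1.54 ± 0.25, adjusted p = 0.00028). Upper layer-like cells had 1.57 to 1.70 with no and 2.47 to 2.98 with 2 mutant alleles (0.78 ± 0.21, 0.0079), a call lost at a finer clustering (adjusted p from 0.0027 to 0.16 over 20 alternatives other than the prefix). The finer upper layer-like class was a smaller and different set of 2924 cells. With the library prefix in the fit, the interneuron-like call stood at 0.89 (0.048), whereas layer V-VI-like cells were at 1.10 (0.15) and upper layer-like cells at 0.12 (0.88). Against the Het embryos of the same prefix, KO was higher by 0.48 ± 0.13, 1.12 ± 0.24 and 0.58 ± 0.19 in these 3 classes (0.05, 0.0047 and 0.046).

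Grin3a passed in 4 of 7 fitted classes in KO, all lower. It fell by 2.03 ± 0.36 on the log2 scale in interneuron-like, 2.08 ± 0.46 in striatal-like and 1.38 ± 0.24 in radial glia-like cells (adjusted p = 0.00095, 0.0047 and 0.00093). Interneuron-like cells held 16.1, 42.6 and 23.7 CPM in WT, 8.24, 10.3, 20.3 and 15.7 in Het and 5.10, 4.10 and 10.1 in KO. WT replicate 2 was far above the other WT embryos, and KO stayed below WT without overlap. With the library prefix in the fit, none of these 3 calls stood (adjusted p = 0.17, 0.24 and 0.39). The call in young-like cells, -0.75 ± 0.28 (0.048), was lost in 15 of 20 other alternatives, among them those without any single embryo except WT replicate 1 and Het replicate 4, with adjusted p from 0.039 to 0.34, and with the prefix (0.32). In upper layer-like cells the log2 fold change was -0.02 ± 0.21 (0.96).

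**Figure D3:**
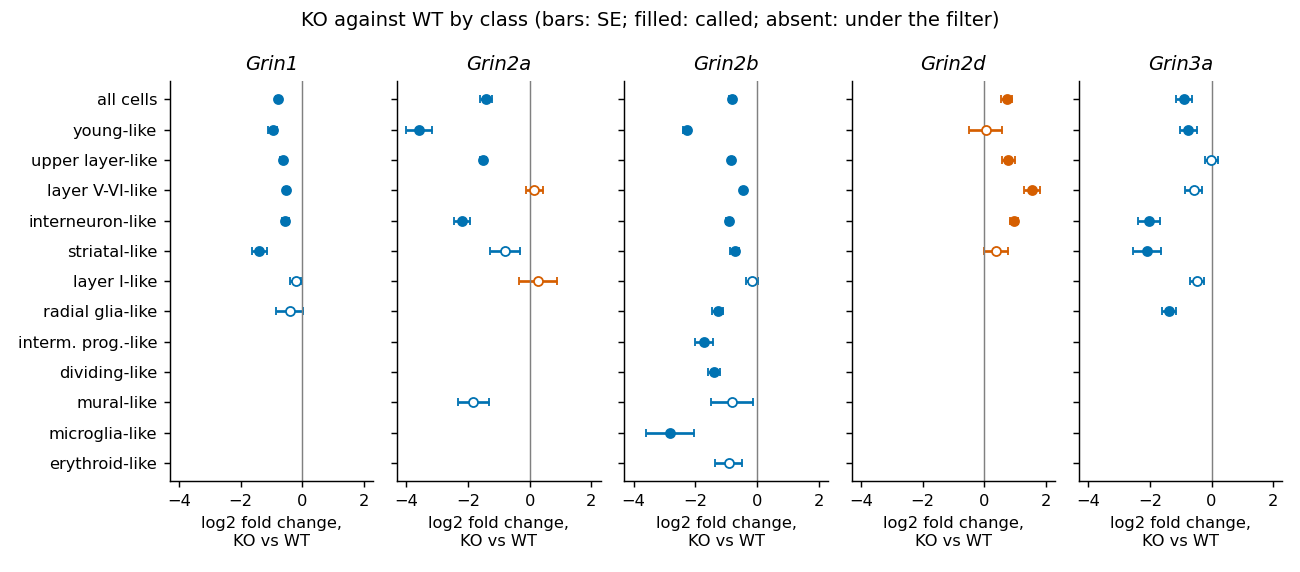
Log2 fold change of KO against WT (x axis) over all cells and in the 12 classes (y axis), 1 panel per subunit gene with its SE as a bar, from the edgeR fits. Filled points passed the test, open ones did not, and absent ones were under the filter on low counts. Grin2b lies left of 0 in all classes, among them erythroid-like and microglia-like cells, which should lack it. Grin2d lies right of 0 in the 5 classes that were fitted.

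Young-like and settled upper layer-like neurons were then compared within each embryo, as a description, since the classes were made from genes of the same cells. All 5 subunit genes with enough UMIs, Grin1, Grin2a, Grin2b, Grin2d and Grin3a, were higher in upper layer-like than in young-like cells in 10 of 10 embryos. Among all 12482 genes compared, 24.9% were higher in every embryo. The mean log2 difference over the embryos was 1.60 for Grin1, 3.18 for Grin2a, 2.66 for Grin2b, 1.5 for Grin2d and 1.72 for Grin3a. Grin2c and Grin3b had too few UMIs in these cells.

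The size of the step from young-like to settled cells was compared between genotypes. For Grin2b it was 3.85-fold in WT, 6.25-fold in Het and 10.6-fold in KO, or 1.94 ± 0.18, 2.64 ± 0.22 and 3.41 ± 0.25 on the log2 scale (SD). For Grin2a it was 4.87-fold, 9.37-fold and 16.3-fold. The KO step of Grin2a depends on the pseudocount of 0.1 CPM, as young-like cells of the KO embryos held 0.264, 0.0797 and 0.267 CPM. The corresponding folds were 2.63, 3.14 and 3.33 for Grin1, 2.00, 2.90 and 3.84 for Grin2d and 2.78, 2.95 and 4.51 for Grin3a. Both classes were lower in KO than in WT for Grin1, Grin2a and Grin2b.

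The difference between these steps was tested with both classes in 1 fit and the embryo as a block. For Grin2b the KO to WT log2 fold change was 1.44 ± 0.11 higher (nearer 0) in upper layer-like than in young-like cells (adjusted p = 1.9e-09). Grin2a followed with 2.06 ± 0.45 (0.0031). Grin1 at 0.33 ± 0.15, Grin2d at 0.75 ± 0.53 and Grin3a at 0.77 ± 0.30 did not pass (0.17, 0.43 and 0.11), and 8.09% of all genes passed. In Het, Grin2b again passed with 0.70 ± 0.09 (9.4e-05), and Grin2a at 1.03 ± 0.29 did not (0.11), with 0.919% of all genes passing. The Grin2b values kept their calls in all 20 alternatives, from 1.30 to 1.82 in KO and from 0.60 to 0.90 in Het. The Grin2a value in KO rests on 9 UMIs in young-like KO cells and was not called at a finer clustering (1.48, with adjusted p from 2.5e-06 to 0.18 over 20 alternatives). The finer upper layer-like class was a smaller and different set of 2924 cells. No fit of this difference held the library prefix, and its part in it was not tested. Within the GA422 libraries, the KO to Het log2 fold change of Grin2b was -1.31 ± 0.11 in young-like and -0.51 ± 0.07 in upper layer-like cells.

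**Figure D4:**
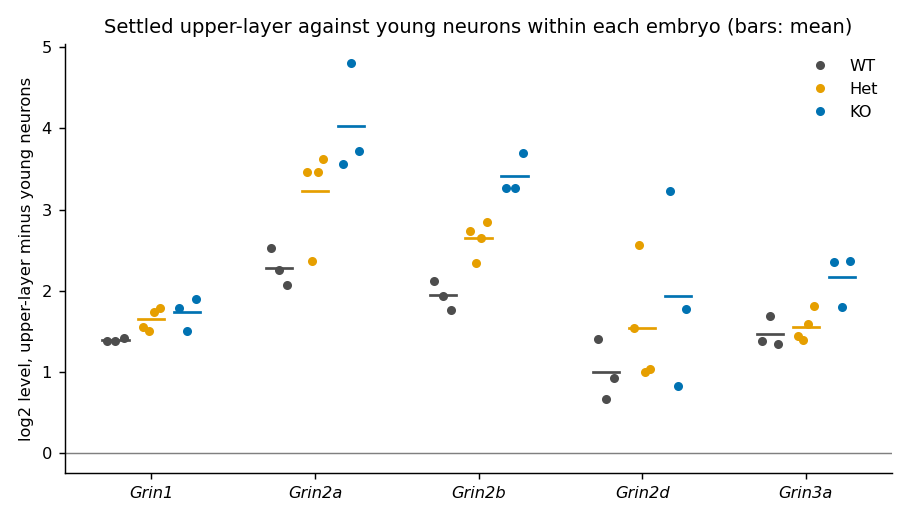
Log2 difference in level, settled upper layer-like minus young-like cells of the same embryo (y axis), for the 5 subunit genes with enough UMIs, with 1 point per embryo and a bar at each group mean. All points lie above 0, and for Grin2b the 3 groups do not overlap, with mean differences of 3.41 in KO, 2.64 in Het and 1.94 in WT.

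Markers within both classes moved with genotype as well. The 9 markers of settled upper-layer neurons summed to 445 to 491 CPM in young-like cells of WT embryos, to 376 to 423 with 1 mutant allele and to 300.4 to 304.9 with 2, where 1 of the 9 was higher than in WT. The 9 markers of intermediate progenitors summed to 447 to 475, 482 to 583 and 552 to 617, with 7 of 9 higher in KO. In upper layer-like cells the same progenitor markers summed to 97.8 to 111, 121 to 156 and 166 to 196 in WT, Het and KO, with 9 of 9 higher in KO. The 8 markers of young neurons themselves summed to 1525 to 1595 in WT and 1789 to 1897 in KO, with 5 of 8 higher in KO. None of these markers was at 0. In upper layer-like cells the settled markers summed to between 1020.5 and 1073 with no mutant allele and between 704 and 749 with 2, and the 15 markers of interneurons to between 589.8 and 617 and between 399 and 436. Young-like cells made up 11.4% ± 1.78 of the cells in WT and 15.3% ± 0.480 in KO, and upper layer-like cells 19.7% ± 1.68 and 14.3% ± 1.21 (SD). The part of these shifts in the subunit values was not tested.

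Single clusters were then taken one at a time. Their fits were not repeated under the alternatives, and the part of the library prefix in their values was not tested. Grin2d was highest in cluster 11, interneuron-like cells with Adarb2, Htr3a and Prox1 among their leading genes, at 40.2 ± 7.71 CPM in WT, 48.1 ± 4.18 in Het and 60.7 ± 7.92 in KO (log2 fold change in KO 0.63 ± 0.15, adjusted p = 0.01). In cluster 2, interneuron-like cells led by Maf, Nxph1, Lhx6 and Sst, it went from 6.59 ± 0.477 through 10.9 ± 2.42 to 16.2 ± 0.0112 (1.30 ± 0.18, 7.8e-05). The highest fold among the 9 clusters drawn was in cluster 7, layer V-like cells, where Grin2d was at 0.519 ± 0.269 in WT, 1.49 ± 0.376 in Het and 2.87 ± 0.740 in KO (2.35 ± 0.40, 0.00026, with 23.3% of all genes passing). Cluster 6, an unnamed cluster with Crym and Grp among its leading genes, held 0.764 ± 0.171, 1.19 ± 0.247 and 2.29 ± 0.522 (1.66 ± 0.35, 0.003, with 17.5% passing).

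Grin3a fell in some clusters and rose in another. In layer V-like cluster 7 it was at 5.94, 4.74 and 8.78 CPM in WT, 1.72, 1.06, 2.67 and 3.25 in Het and 0.822, 0.791 and 1.64 in KO. WT stood above all mutant embryos, with log2 fold changes of -2.46 ± 0.37 in KO and -1.41 ± 0.30 in Het (adjusted p = 8.1e-05 and 0.023). Cluster 6 gave -2.25 ± 0.34 and -1.79 ± 0.28 (0.00021 and 0.0091). In cluster 0, the larger upper layer-like cluster, Grin3a fell by 1.41 ± 0.34 in KO (0.0037).

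In cluster 9, the smaller upper layer-like cluster with Inhba and Rorb among its leading genes, Grin3a was instead higher in KO. It was at 8.08, 10.2 and 10.7 CPM in WT, 12.6, 9.41, 12.8 and 14.1 in Het and 18.6, 14.8 and 21.5 in KO, all KO embryos being above all others (0.96 ± 0.17, adjusted p = 0.00061, with 18.4% of all genes passing). The upper layer-like class, whose net value was -0.02, thus held a lower level in cluster 0 and a higher one in cluster 9. Cluster 9 made up 23.8% ± 3.47 of the class in WT and 16.7% ± 1.58 in KO. Cluster 21, an unnamed cluster, had the highest Grin3a level of those drawn, at 127 ± 57.5 in WT, 141 ± 79.7 in Het and 62.9 ± 20.4 in KO. It was not fitted, since it had 5 cells in Het replicate 1 and 30 to 134 cells in each of the other embryos. The Grin3a level in those 5 cells was 261 CPM.

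Grin2a was also concentrated in a few clusters. Cluster 6 held 35.5 ± 9.14 CPM in WT, 23.1 ± 1.95 in Het and 14.7 ± 4.84 in KO (log2 fold change -1.23 ± 0.18, adjusted p = 0.00014), and cluster 9 held 28.1 ± 4.13, 14.8 ± 2.41 and 9.69 ± 1.74 (-1.50 ± 0.17, 5.5e-06). In cluster 9 the Het value passed too, at -0.88 ± 0.13 (0.00089).

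**Figure D5:**
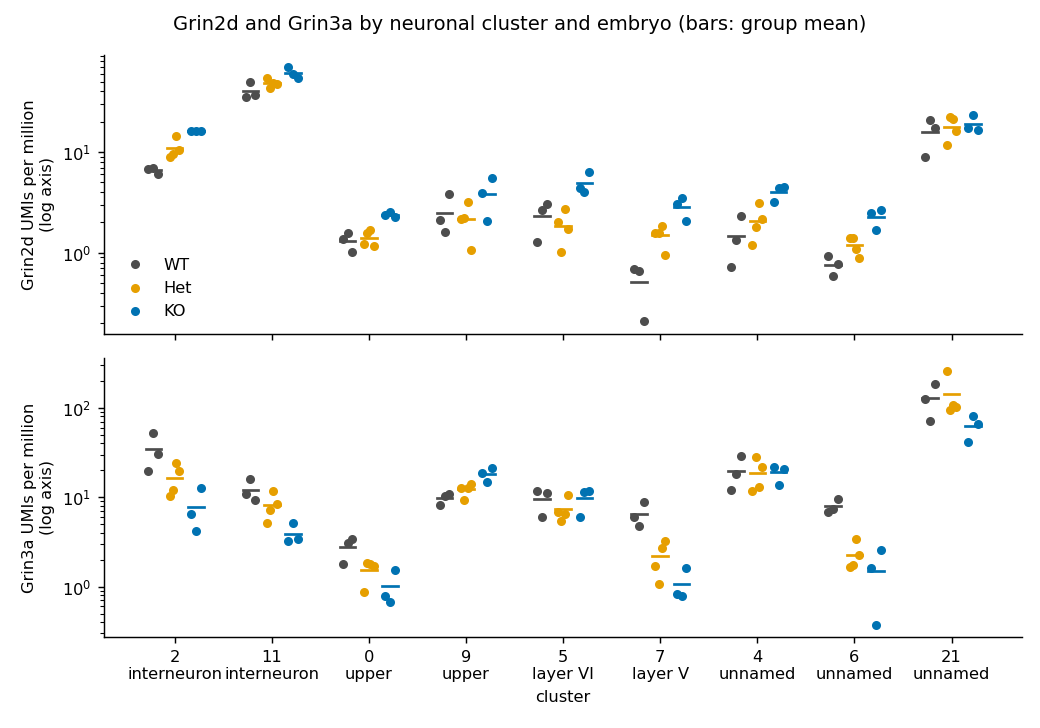
CPM (log axes) of Grin2d (upper panel) and Grin3a (lower panel) in 9 neuronal clusters, with 1 point per embryo and a bar at each group mean. In KO against WT Grin2d passed as higher in clusters 2, 11, 0, 5, 7, 4 and 6 and did not pass in cluster 9. Grin3a passed as lower in clusters 2, 11, 0, 7 and 6 and as higher in cluster 9, and did not pass in clusters 5 and 4. Cluster 21 was not fitted.

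The balance of the main GluN2 genes was measured as the Grin2a share of the summed Grin2a and Grin2b UMIs, a share of captured RNA and not of receptors. Over all cells it was 2.81%, 3.37% and 4.82% in WT, 2.86%, 3.54%, 3.50% and 2.72% in Het and 2.13%, 2.20% and 2.88% in KO. KO replicate 3 overlapped WT replicate 1. The mean difference was -1.27 percentage points in KO (two-sided exact permutation test, p = 0.2, adjusted over the 2 comparisons 0.4) and -0.51 in Het (p = 0.6, adjusted 0.6). These designs allow p values no smaller than 0.1 and 0.0286. In upper layer-like cells the share was 4.02% ± 0.457 in WT, 3.28% ± 0.290 in Het and 2.55% ± 0.421 in KO. All KO embryos there were below all WT embryos (exact permutation p = 0.1, the smallest possible). In layer V-VI-like cells it was 0.644% ± 0.170 in WT, 0.736% ± 0.185 in Het and 0.974% ± 0.349 in KO, where the groups overlapped and the KO difference was 0.330 percentage points in the other direction (exact permutation p = 0.2, adjusted 0.4).

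The genes whose WT levels followed Grin2b most closely over 36 sums (12 classes in 3 WT embryos, log2 of CPM plus 1) were Tenm2 with Pearson's r of 0.956, Frmd3 with 0.945, Mapt with 0.926, Cdh13 with 0.925 and Trim67 with 0.920, among 12201 genes. Tenm2 encodes a teneurin of the synaptic surface, Mapt the axonal microtubule protein tau and Cdh13 a cell adhesion protein. Of the other subunit genes, Grin1 had an r of 0.791, Grin2d 0.572, Grin3a 0.476 and Grin2a 0.337. The sums share embryos and classes of neurons, and the correlations are given as a description.

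Proteins that anchor, modify and move the receptor were followed as a list of 42 genes. Over all cells, 11 of the 42 passed in KO against WT, 9 lower and 2 higher (24.5% of all genes passed), with a median log2 fold change of -0.07 over the list and -0.01 over all genes. Ptk2b, a calcium-activated tyrosine kinase that acts on the receptor through Src, fell by 2.25 ± 0.22 on the log2 scale (adjusted p = 4e-05). Neto1, an auxiliary protein of NMDA and kainate receptors, fell by 1.32 ± 0.11 (1.2e-05). The scaffold genes Dlgap1, Dlg2 and Dlgap2 fell by 0.84 ± 0.09, 0.75 ± 0.05 and 0.64 ± 0.11 (6.7e-05, 2.3e-06 and 0.0013). Camk2b, a subunit of the kinase that docks on GluN2B, fell by 0.40 ± 0.05 (0.00017). The 2 genes called higher, named after their values were seen, were Nefl, which encodes the neurofilament light chain, at 0.61 ± 0.07 (0.00018), and Src, the tyrosine kinase itself, at 0.26 ± 0.06 (0.006).

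Other members of this list differed less. Dlg4, which encodes PSD-95, had -0.17 ± 0.05 (adjusted p = 0.02) and Dlg3, which encodes SAP102, 0.19 ± 0.04 (0.003), both under the fold threshold. Camk2a had -0.17 ± 0.15 (0.41), and Rest, a repressor of neuronal genes including NMDA receptor genes, -0.05 ± 0.08 (0.67). In Het, 2 of the 42 passed (2.98% of all genes did), Dlg2 with -0.33 ± 0.04 (0.0055) and Neto1 with -0.37 ± 0.10 (0.05). In KO against Het 8 of the 42 passed, 7 lower and 1 higher (5.5% of all genes did).

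Of 20 genes for the supply and removal of glutamate, glycine and D-serine, 19 were fitted. In KO against WT 6 passed, 3 lower and 3 higher (24.5% of all genes passed), with a median of -0.02. Slc6a9, the glycine transporter GlyT1, fell by 0.80 ± 0.15 (adjusted p = 0.0018), Srr, the serine racemase that makes D-serine, by 0.40 ± 0.06 (0.00057), and Slc1a1, a neuronal glutamate transporter, by 0.34 ± 0.05 (0.00084). Phgdh and Psph, enzymes of serine synthesis, rose by 0.46 ± 0.10 and 0.35 ± 0.09 (0.006 and 0.009). In Het against WT 1 of the 19 passed, Slc6a9 with -0.55 ± 0.13 (0.044), and in KO against Het 0 did. Of all genes, 2.98% and 5.5% passed in these comparisons.

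Of 18 genes that act downstream of calcium entry, 6 passed in KO, 4 higher and 2 lower, with a median of 0.06. Fos and Arc, both induced by activity and Fos also by tissue dissociation, rose by 1.58 ± 0.31 and 0.65 ± 0.23 (adjusted p = 0.003 and 0.042), and Rasgrf1, a calcium-dependent Ras activator, rose by 1.26 ± 0.19 (0.00056). Fos was already higher in Het than in WT, by 1.32 ± 0.30 (0.039), and did not pass in KO against Het (0.26 ± 0.28, 0.65). Tiam1, a Rac activator downstream of the receptor, fell by 0.55 ± 0.06 (4.8e-05), and Crtc1, a CREB coactivator, by 0.32 ± 0.03 (7e-05). In Het against WT 2 of the 18 passed, Fos and Tiam1 (-0.29 ± 0.05, 0.017), and in KO against Het 2, 1 higher and 1 lower. Of all genes, 2.98% and 5.5% passed in these comparisons. The shares that passed in KO against WT in the 3 lists are to be read against the 24.5% of all genes. All list values come from fits without the library prefix, with which 8.31% of all genes passed in KO against WT.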

How the data were processed

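Cells from the cortex of 10 mouse embryos were sequenced with the 10X Genomics 3′ v3 kit, 1 library per embryo. Per the file headers and the submitters' processing notes, the UMI count matrices were made by the authors with Cell Ranger 6.0.2 on the mm10 build, and the counts were deposited without normalisation. Cells with under 1000 UMIs or over 10% mitochondrial UMIs were left out. Clustering used Seurat 5.3.0 (2000 variable genes without the subunit genes and listed genes, 30 dimensions, resolution 0.4). A cluster was named from marker lists where the mean marker z-score was at least 0.5, at least 3 markers were found in 10% of its cells and 2 stood among its 10 leading genes. A cluster whose cells had a median under 0.333 of their embryo's median UMIs stayed unnamed where a deeper cluster had the same name, which left out cluster 16 (0.137), otherwise interneuron-like. These naming thresholds were set after seeing the data. Scrublet marked doublets at the expected rate (scanpy 1.11.5), which were kept and removed only as an alternative.

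UMIs of each embryo were added up over all cells, each class with 20 or more cells in every embryo, and each cluster. The sums were fitted with edgeR 4.0.16 (filterByExpr, TMM, quasi-likelihood test, R 4.3.3), with the 10 embryos in 1 fit, no covariate and Benjamini-Hochberg adjustment over all genes of the fit. CPM values printed per embryo carry no TMM scaling and fold changes do, and the comparisons share their WT or KO embryos. Shares were compared by exact permutation tests (scipy 1.17.1). The fits were also run on simulated counts with known changes. These counts had the same set spread for every gene and no effect of prefix, litter or free RNA. They therefore say nothing about such effects on the calls. Settled and young neurons were compared with a pseudocount of 0.1 CPM. The class fits with fewer cells rest on fewer UMIs, and intervals on counts cover counting error only.

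The members and gene lists were chosen with earlier results of these data known. All 7 subunit genes are named. From each list, up to 5 genes with the largest changes among those that passed are named, with Rest, Dlg4, Dlg3, Camk2a, Camk2b and Neto1, and for Grin2b the 5 genes of highest correlation. Clusters were named in the text after their values were seen. Alternatives were DESeq2 1.42.0, its size factors, no filter on low counts, a replicate block, the library prefix, limma 3.58.1 on class shares held fixed (pseudocount 1), stricter cell filters, doublets removed, resolution 0.8, other settled classes and leaving out each embryo. No deposited column of other samples was found (0).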

Additional observations from a re-analysis of the deposited data

Results flagged for a closer look

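In 44 groups of 4 Het embryos, 5 values stood apart by Dixon's test, which by chance marks about 1 group in 20. Grin2b in intermediate progenitor-like cells was at 22.3 CPM in Het replicate 4 and at 10.8 to 12.6 in the other Het embryos. Grin2b in microglia-like cells was at 18.5 CPM in Het replicate 1 and at 4.70 to 5.81 in the others. Grin3a in striatal-like cells was at 2.56 CPM in Het replicate 1 and at 7.10 to 7.96 in the others. Grin2a was at 8.16 CPM in upper layer-like cells of Het replicate 2, against 9.04 to 9.20, and at 1.5 CPM in its young-like cells, against 0.654 to 0.743.

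The log2 fold change against WT differed between settled upper layer-like and young-like cells for Grin2b by 1.44 in KO and 0.70 in Het, and for Grin2a by 2.06 in KO (edgeR interaction terms, adjusted p = 1.9e-09, 9.4e-05 and 0.0031).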

How the results depend on the processing

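Over 50 single-gene results and 933 alternatives, 825 values kept their direction and their side of the threshold, 106 lost the call, none changed sign and 2 moved, the Grin2b level of KO as a percentage of WT after subtraction of the erythroid level in intermediate progenitor-like (95.5) and radial glia-like (52.3) cells. Over 10 counts of calls and differences in share and 188 alternatives, 159 values held, and the 28 that moved and the 1 that changed sign are given here singly or as ranges. The library prefix as a covariate ended 25 of 41 single-gene calls, and 27 of 44 were past the threshold in every other alternative. Over all cells in Het against WT, 1 subunit gene was called. This number became 3 with DESeq2, 2 with no filter on low counts, 0 with the prefix and 2 without erythroid-like cells. It was 3 with class shares held fixed and 0 to 2 with 1 embryo left out. Of all genes, 5.68%, 2.1%, 0.232%, 3.12%, 3.62% and 0.414% to 10.4% passed in the same order, against 2.98% in the main fit. In KO against WT the number was 6, and it was 3 with the prefix and 5 to 6 with 1 embryo left out. Class shares held fixed gave 5, where the pseudocount of 1 CPM exceeds the level of Grin2c. Of all genes, 8.31%, 19.2% to 26.3% and 20.5% passed in this order, against 24.5%. In KO against Het the number was 4, and 1 to 5 with 1 embryo left out, where 2.94% to 6.02% of all genes passed, against 5.5%. By class, the 10 Het calls became 20 with no filter, 2 with the prefix and 3 to 19 with 1 embryo left out. At a maximum of 5% mitochondrial UMIs they became 6, with 10 of the 12 classes fitted. Of all gene and class pairs, 2.91%, 0.436%, 0.71% to 5.41% and 1.31% passed in this order, against 1.84%. The 24 KO calls became 11 with the prefix, where 4.52% of all pairs passed against 15.9%. In the comparison of settled and young neurons, the 2 KO calls became 1 at resolution 0.8, and the 1 Het call became 2 with no filter, with layer V-VI-like cells or cluster 0 as settled, and 1 to 2 with 1 embryo left out. The difference in the Grin2a share of Grin2a and Grin2b UMIs over all cells, Het vs WT, ran from -0.943 to 0.0626 percentage points with 1 embryo left out and changed sign without WT replicate 3. The cause of these moves was not tested. The alternatives without erythroid-like cells, without clusters 15 to 17, with cluster 16, with single clusters as settled, with the erythroid level subtracted and within the GA422 libraries were chosen after seeing the data.

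Same-numbered embryos correlated at -0.185 to 0.126 in their deviations from the group means, and 2 of 9 correlated best with their own number. No pairing by number was seen. The study calls WT and Het embryos littermates, but the labels name no litters, so shared litters could not be modelled and this check cannot exclude their effect. With a replicate block, 4 genes over all cells and 18 by class were called in Het against WT, where 10.5% of all genes and 5.5% of all gene and class pairs passed (2.98% and 1.84% without it), 6 and 24 in KO against WT (26.2% and 17.2%), and 5 over all cells in KO against Het (5.97%). With the prefix, these shares were 0.232% and 0.436% in Het against WT and 8.31% and 4.52% in KO against WT. Counts under 20 UMIs in a class limited what could be compared.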
